A study of Mus musculus with 36 samples.

Results

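Endothelial cells line every blood vessel of the heart, and the 9 genes described here are markers by which they are recognised in mixed tissue: Pecam1, Cdh5, Cldn5, Esam, Emcn, Tie1, Tek, Erg and Rgcc. All probe sets of the Affymetrix 430A and 430B chips that carry 1 of these symbols alone in the platform annotation were taken, which gave 12 of the 45137 probe sets, 11 on chip 430A and 1 on chip 430B. A probe set is a group of short oligonucleotides that report 1 transcript as a fluorescence signal. Of the 12, 11 passed the filter on dim signal, which left out probe sets whose mean over 18 hearts was below 20% of the chip's trimmed mean, the mean with the extreme 2% at each end removed. The probe set left out was the Erg probe set of chip 430A (1425370_a_at), with a mean signal of 25.2, so Erg is described by its probe set on chip 430B.

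The hearts came from mice with a pair of transgenes, Tet-myrAkt1 and αMHC-tTA (the labels print the Greek letter as a question mark). The αMHC promoter confines the tetracycline-controlled activator to cardiac myocytes, so the activated, myristoylated form of the kinase Akt1 is switched on in muscle cells and not in the endothelium itself. RNA of 18 hearts was hybridised, 1 array of each chip per heart number, in 5 groups: 4 hearts taken before Akt1 was induced (age 12 weeks), 4 with Akt1 on for 2 weeks (age 14 weeks), 4 with it on for 2 weeks and then off for 2 days (age 14 weeks and 2 days), 3 with it on for 6 weeks (age 18 weeks), and 3 with it on for 6 weeks and then off for 2 weeks (age 20 weeks). Every mouse, including those before induction, carried both transgenes and was labelled male. Age rose along with the protocol, so age and induction time cannot be told apart. The design text states that every hybridisation came from a single mouse, so the p-values measure the spread between mice of these groups.

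Endothelial cells are held together by adherens junctions, built on VE-cadherin, and by tight junctions, built on claudins and on adhesion molecules of the immunoglobulin family. Their survival and quiescence are governed in part by angiopoietins, which are made by neighbouring mural and muscle cells and act on the Tie receptors, and by vascular endothelial growth factor, which cardiac myocytes release. Transcription factors of the ETS family, Erg among them, bind a GGAA core in the promoters and enhancers of many endothelial genes. In whole heart, fewer endothelial cells and less RNA per endothelial cell cannot be told apart.

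The promoter windows of 3 members are shown: Emcn and Tek, which fell after 6 weeks of induction, and Rgcc, called higher between 2 and 6 weeks by 1 probe set. Erg also fell, and for its windows only the counts are given. The windows are 300 bases long, run 5′ to 3′ on the strand of the gene and come from RefSeq, build GRCm38.p6: chr3:137340828-137341127 on the plus strand for Emcn, chr4:94739039-94739338 on the plus strand for Tek and chr14:79301586-79301885 on the minus strand for Rgcc. Capitals mark the ETS core GGAA or its reverse complement TTCC, and in Emcn also the longer motif ACAGGAAG on the minus strand, written CTTCCTGT, which contains 1 of the cores.
Emcn: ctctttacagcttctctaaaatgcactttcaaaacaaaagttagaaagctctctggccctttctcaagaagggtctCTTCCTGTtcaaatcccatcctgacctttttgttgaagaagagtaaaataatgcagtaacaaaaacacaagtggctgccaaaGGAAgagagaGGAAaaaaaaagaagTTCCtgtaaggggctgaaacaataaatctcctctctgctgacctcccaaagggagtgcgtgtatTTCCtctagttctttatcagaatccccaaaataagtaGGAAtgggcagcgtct
Tek: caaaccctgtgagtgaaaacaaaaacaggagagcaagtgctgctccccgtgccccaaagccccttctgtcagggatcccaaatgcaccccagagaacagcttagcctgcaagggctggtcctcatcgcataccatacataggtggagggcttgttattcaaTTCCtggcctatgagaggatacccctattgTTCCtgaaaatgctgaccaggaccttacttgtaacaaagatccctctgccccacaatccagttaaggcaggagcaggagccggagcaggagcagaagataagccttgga
Rgcc: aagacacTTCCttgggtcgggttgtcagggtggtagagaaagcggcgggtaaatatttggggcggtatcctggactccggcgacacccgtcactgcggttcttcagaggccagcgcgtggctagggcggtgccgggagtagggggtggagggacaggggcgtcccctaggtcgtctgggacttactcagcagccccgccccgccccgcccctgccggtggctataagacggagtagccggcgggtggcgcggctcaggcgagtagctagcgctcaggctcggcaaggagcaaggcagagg
The Emcn window held 6 cores, the Tek window 2 and the Rgcc window 1. Tie1, called in no comparison, had 9, the 3 windows of Erg had 1, 4 and 2, and Cldn5 had 0. The longer motif lay at bases -174 to -167 from the gene start in Emcn and was in 3.58% of the 32851 windows of the table, searched on both strands. A core of 4 letters is common by its length: 96.0% of all windows held at least 1, with a median of 3. Windows were in the table for 6 of the 9 members. Cdh5, Esam and Pecam1 had no window.

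Every heart was checked against its label. The Akt1 probe set 1425711_a_at gave a signal of 547.8 ± 69.7 (SD, n = 4) before induction, 2878 ± 645 (SD, n = 4) after 2 weeks and 2365 ± 542 (SD, n = 3) after 6 weeks of induction, with 718.0 ± 21.8 (SD, n = 4) and 753.2 ± 106 (SD, n = 3) after repression. The other Akt1 probe sets showed no such rise. Before induction and after 2 and 6 weeks of it, 1416657_at averaged 1044, 878 and 708. On chip 430B, 1440950_at averaged 235, 156 and 219, and 1442759_at 21.9, 23.6 and 18.9. Hearts 3 and 4 before induction, labelled male, had Xist signals of 2518 and 2170, where the remaining 16 hearts gave 4.4 to 92.8. The ratio of Actb signal at its 3′ end to that at its 5′ end, a measure that grows as RNA is shortened, was 3.71 for heart 3 of the 6-week group and 0.95 to 1.92 for the remaining 17. The median signal of an array lay between 183.0 and 231.7 for chip 430A and between 60.9 and 78.9 for chip 430B. Values without these hearts are given where leaving them out ended a call or moved a value by a wide margin. The Xist probe sets are on chip 430A only, so on chip 430B these hearts are known by their number alone. Heart 3 of the 6-week group had the highest Actb ratio on chip 430B too, at 4.20, but only 13 of 18 arrays correlated best with their own number on the other chip over 100 shared probe sets.

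The 9 genes did not move as a block. After 6 weeks of Akt1 induction, 4 of them were lower than before induction: Emcn, Erg, Pecam1 and Tek, to between 0.444 and 0.657 of the starting level on the scale of the test. In the same hearts Esam, Tie1 and both Cdh5 probe sets did not pass the test. Rgcc was the 1 member called higher between 2 and 6 weeks of induction, by 1 probe set and in 9 of 17 alternative settings. After 2 weeks of repression the 4 genes were called higher than at 6 weeks and Rgcc lower, with Tek called in only 4 of 16 alternative settings and Erg in 12 of 16. The short time points gave single calls, Cldn5 higher after 2 weeks of induction and 1 Cdh5 probe set higher after 2 days of repression.

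Changes are given as log2 differences of signal after an offset of 50.02 signal units on chip 430A or 12.25 on chip 430B was added, which makes the fold of a dim gene look smaller, and a call is a Benjamini-Hochberg adjusted p below 0.05 in the limma fit over all probe sets of a chip. Of the 11 member probe sets, 4 were called lower and 0 higher after 6 weeks against before induction, where 7.54% of all 33084 probe sets tested were called lower and 5.65% higher. Their median log2 change was -0.19, beside -0.08 over all probe sets. Between 2 and 6 weeks of induction 3 were called lower and 1 higher, against 2.36% and 1.69% of all probe sets, with a median of -0.42 beside -0.04. The 2 weeks of repression after the 6 weeks brought 4 called higher and 2 lower, against 6.48% and 4.41%, with a median of 0.37 beside 0.02. These comparisons share the 6-week hearts, so they are not separate evidence.

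**Figure D1:**
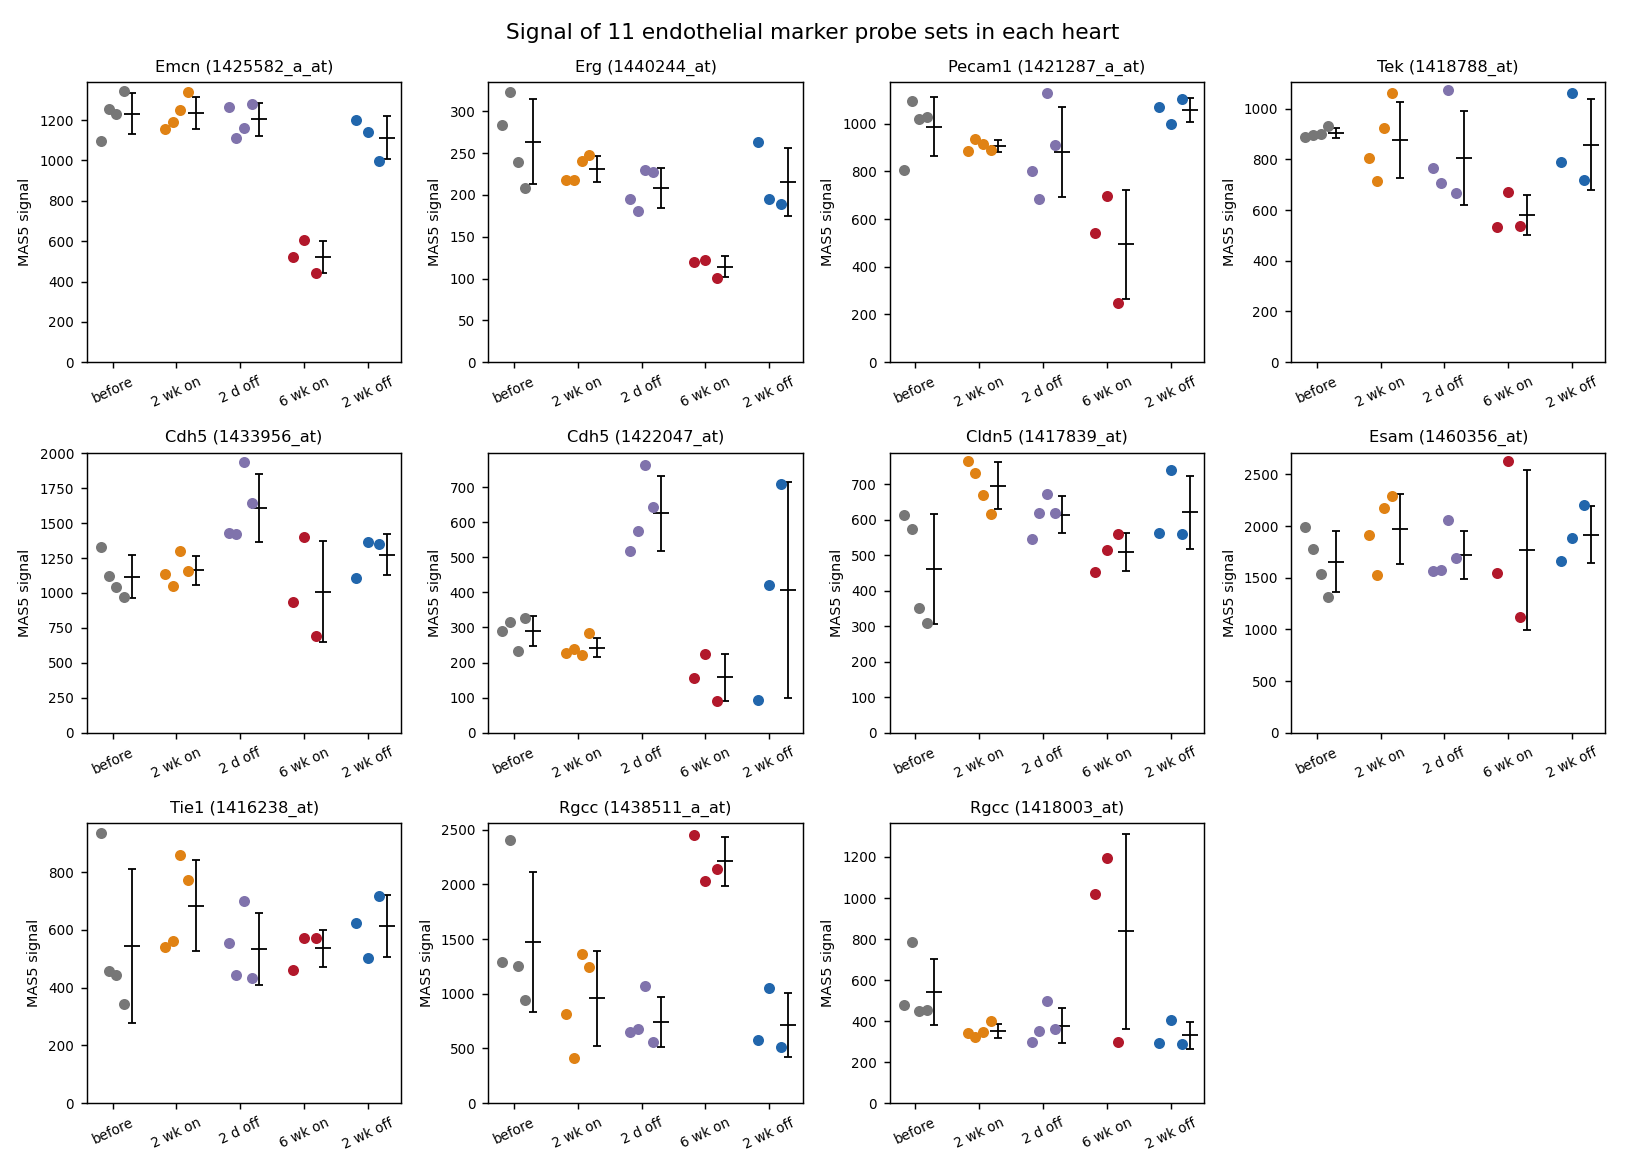
Signal (linear scale, arbitrary units) of the 11 tested member probe sets in the 18 hearts, 1 panel per probe set. Points are hearts, and bars are the mean ± SD of each of the 5 groups. The 6-week hearts lie below all other hearts for Emcn (442.7 to 603.4) and Erg (100.3 to 122.5), while for Esam they span 1122.4 to 2626.2.

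Emcn encodes endomucin, a sialomucin on the surface of capillary and venous endothelium that limits leukocyte adhesion. Its probe set 1425582_a_at read 1097.3, 1257.1, 1230.8 and 1342.4 in the hearts before induction and 1156.5, 1192.3, 1249.9 and 1339.2 after 2 weeks. After 2 days of repression the signals were 1262.9, 1113.9, 1158.7 and 1278.4. These 12 hearts overlapped throughout. After 6 weeks of induction the hearts gave 520.0, 603.4 and 442.7, and after 2 weeks of repression 1200.6, 1142.3 and 996.1. All 3 of the 6-week hearts were below every other heart, and the hearts after repression lay within or just below the range of the early groups.

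Emcn fell by 1.17 ± 0.119 (SE) on the log2 scale at 6 weeks against before induction, to 0.444 of its level (limma, adjusted p = 3.14e-06), and by 1.17 ± 0.119 against 2 weeks of induction (limma, adjusted p = 2.15e-05). It rose by 1.03 ± 0.127 after 2 weeks of repression (limma, adjusted p = 4.58e-05), to a mean of 1113 ± 105 (SD, n = 3) against 1232 ± 102 (SD, n = 4) before induction, a difference of -0.14 that did not pass the test. Without heart 3 of the 6-week group the fall was 1.07, and without the hearts with Xist signal 1.11. Emcn was also the 1 member called in the test of late against early repression: its rise over 2 weeks after 6 weeks of induction exceeded the change over 2 days after 2 weeks by 1.06 ± 0.168 (limma, adjusted p = 0.00431), and by 0.96 without heart 3 of the 6-week group. Members called higher in that test were 1 of 11, against 0.236% of all probe sets. After 2 weeks of induction Emcn differed from before induction by 0.004 (limma, adjusted p = 0.986), so the early course had no called fall to return from. The repression lengths also differ, so course and length cannot be told apart.

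Erg encodes an ETS transcription factor that endothelial cells express continuously and that maintains junction genes. Probe set 1440244_at on chip 430B read 283.7, 323.5, 239.9 and 208.2 before induction, 217.3, 217.3, 240.3 and 248.1 after 2 weeks, and 195.4, 180.7, 229.3 and 226.9 after 2 days of repression. It then read 120.4, 122.5 and 100.3 after 6 weeks, and 262.9, 195.1 and 189.2 after 2 weeks of repression. The 3 hearts at 6 weeks were again below all 15 others, and the other 4 groups overlapped. Erg fell by 1.11 ± 0.170 (SE) at 6 weeks against before induction (limma, adjusted p = 0.000578) and by 0.94 ± 0.170 against 2 weeks of induction (limma, adjusted p = 0.00698). Its level rose by 0.84 ± 0.181 after repression (limma, adjusted p = 0.0122). That rise was not called without heart 3 of the 6-week group (0.76, adjusted p = 0.0510), without heart 1 after 2 weeks of repression (0.70, adjusted p = 0.0604) or when the Actb ratio was added to the model (0.74, adjusted p = 0.0952), all by limma. Over all 16 alternative settings the rise was called in 12, and the highest adjusted p was 0.145 (limma). The fall from before induction was still called without that heart 3, at 1.03. Signals of chip 430B are scaled apart from those of chip 430A and are not set against them.

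Pecam1, known as CD31, is an adhesion molecule at endothelial cell contacts that platelets and leukocytes also carry. Its signals were 807.0, 1094.7, 1021.2 and 1028.2 before induction, 883.6, 934.5, 915.2 and 890.2 after 2 weeks, and 802.1, 686.1, 1128.9 and 911.4 after 2 days of repression. After 6 weeks they were 541.3, 696.4 and 247.4, and after 2 weeks of repression 1069.9, 999.6 and 1101.3. The 6-week hearts did not overlap with the hearts before induction, after 2 weeks of induction or after 2 weeks of repression, and overlapped by 1 heart with the 2-day group. The lowest value, 247.4, belongs to the heart with the high Actb ratio.

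Pecam1 fell by 1.02 ± 0.220 (SE) at 6 weeks against before induction (limma, adjusted p = 0.00314) and by 0.91 ± 0.220 against 2 weeks of induction (limma, adjusted p = 0.0176). It rose by 1.12 ± 0.235 after repression (limma, adjusted p = 0.00300). Leaving out heart 3 of the 6-week group brought these to a fall of 0.64 (adjusted p = 0.0137), a fall of 0.52 that was not called (adjusted p = 0.0628) and a rise of 0.74 (adjusted p = 0.0101), all by limma. With the hearts with Xist signal left out as well, the first of these was a difference of -0.58 and was not called (limma, adjusted p = 0.0835). With the Actb ratio as a covariate the rise after repression was 0.62 and not called (limma, adjusted p = 0.0510), and these ratios were 1.24 to 3.71 at 6 weeks and 0.95 to 1.22 after repression. The size of the Pecam1 change therefore rests in part on 1 heart, and the direction was the same in every setting run. The fall against 2 weeks of induction was called in 14 of 17 alternative settings, with a highest adjusted p of 0.109 (limma). For the rise after repression it was 14 of 16, with a highest adjusted p of 0.0672 (limma).

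Tek, also called Tie2, is the receptor tyrosine kinase that binds the angiopoietins. Its signals before induction were close together, at 886.7, 894.4, 899.0 and 932.7. They were 804.2, 712.9, 922.1 and 1059.4 after 2 weeks and 766.6, 707.5, 1074.6 and 667.4 after 2 days of repression. After 6 weeks the hearts read 531.6, 670.0 and 535.2, and after 2 weeks of repression 790.8, 1061.1 and 719.7. The 6-week hearts lay below those of every group but the 2-day group, with which 1 heart overlapped. Tek fell by 0.61 ± 0.166 (SE) at 6 weeks against before induction, to 0.657 of its level (limma, adjusted p = 0.0143). Its rise after repression, 0.52 ± 0.178, was just past the threshold (limma, adjusted p = 0.0477). The call at 6 weeks was lost without heart 3 of that group (-0.56, adjusted p = 0.0521) and without the Xist-positive pair of hearts (-0.59, adjusted p = 0.0848). The call after repression was lost without that heart 3 (0.47, adjusted p = 0.134), without heart 1 of the 6-week group (0.46, adjusted p = 0.122), without heart 1 or 2 after repression (0.56 and 0.36, adjusted p = 0.0637 and 0.223), and with the Actb covariate (0.45, adjusted p = 0.216). Between 2 and 6 weeks of induction Tek differed by -0.55 and was not called (adjusted p = 0.0536), all by limma.

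Tie1, the related receptor that has no angiopoietin of its own and modulates signalling through Tek, showed no such pattern. Its signals ran from 343.6 to 935.6 before induction, from 540.3 to 859.6 after 2 weeks, from 433.0 to 700.1 after 2 days of repression, from 462.6 to 572.6 after 6 weeks and from 502.3 to 715.3 after 2 weeks of repression. All groups overlapped, and heart 1 before induction gave the highest value of the 18. At 6 weeks Tie1 differed from before induction by 0.07 (limma, adjusted p = 0.878), and it was called in none of the 8 comparisons. The spread of 266 (SD, n = 4) before induction, with a mean of 544.5, limits what this probe set can show.

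Cdh5 encodes VE-cadherin, the adhesion molecule of endothelial adherens junctions, and was measured by 2 probe sets. The brighter, 1433956_at, read 1331.5, 1122.0, 1045.4 and 970.3 before induction and 1134.7, 1050.2, 1302.6 and 1159.1 after 2 weeks. After 2 days of repression it read 1427.4, 1425.1, 1938.1 and 1645.9. These last 4 hearts were above all 14 others, since the 6-week hearts read 933.6, 1401.4 and 689.3 and the hearts after 2 weeks of repression 1104.0, 1366.4 and 1349.3. The difference between 2 days of repression and 2 weeks of induction was 0.45 ± 0.166 (SE) and did not pass the test (limma, adjusted p = 0.0690), and this probe set was called in no comparison.

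The other Cdh5 probe set, 1422047_at, read 288.8, 316.1, 231.5 and 326.7 before induction and 227.9, 237.6, 222.3 and 282.9 after 2 weeks of induction. It read 517.2, 575.4, 763.7 and 643.0 after 2 days of repression, above every heart of the 2 preceding groups. After 6 weeks it read 156.6, 225.4 and 90.7, and after 2 weeks of repression 92.7, 421.9 and 707.5, the widest spread of any group for this probe set. Cdh5 by this probe set rose by 1.20 ± 0.333 (SE) in 2 days of repression, 2.29-fold (limma, adjusted p = 0.0177). The Actb ratios were 1.04 to 1.18 in the 2-day hearts and 1.26 to 1.92 after 2 weeks of induction, without overlap, and with the ratio as a covariate the rise was 0.91 and not called (limma, adjusted p = 0.0745). The call was also lost without heart 3 of the 2-day group (1.10, limma, adjusted p = 0.0517). After 6 weeks the difference from before induction was -0.76 and not called (limma, adjusted p = 0.139). Heart 3 of the 6-week group, with the high Actb ratio, was the lowest of its group by both Cdh5 probe sets (90.7 and 689.3). Both probe sets stood highest in the 2-day hearts and differed in the size of that difference.

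Between 2 weeks of induction and 2 days of repression, 1 of 11 member probe sets was called higher and 0 lower, against 5.29% and 4.44% of all probe sets. The median member change was -0.12, beside -0.01 over all probe sets. Against the hearts before induction, 0 of 11 were called after 2 days of repression, where 3.23% of all probe sets were, and 4 had an unadjusted p below 0.05 in limma: both Cdh5 probe sets (0.98 and 0.51), Cldn5 (0.42) and Rgcc by 1438511_a_at (-0.90). Without the hearts with Xist signal the Cldn5 difference was 0.04.

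Cldn5 encodes claudin 5, the main claudin of endothelial tight junctions. Its signals were 613.8, 574.0, 351.0 and 308.2 before induction and 765.7, 731.3, 671.2 and 614.9 after 2 weeks. The groups touched without overlapping, 614.9 against 613.8. After 2 days of repression the hearts gave 545.9, 619.4, 674.0 and 619.0, after 6 weeks 452.8, 515.2 and 559.7, and after 2 weeks of repression 561.7, 740.2 and 560.8. The low values before induction, 351.0 and 308.2, are those of the hearts with Xist signal. Cldn5 rose by 0.59 ± 0.171 (SE) after 2 weeks of induction, 1.51-fold (limma, adjusted p = 0.0374), and without those hearts the difference was 0.21 and was not called (limma, adjusted p = 0.575). It was the only 1 of the 11 member probe sets called higher there, with 0 lower, against 2.66% and 2.35% of all probe sets. At 6 weeks the difference from before induction was 0.17 and not called, and it was -0.21 without those hearts.

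Esam encodes an immunoglobulin-like adhesion molecule of endothelial tight junctions that platelets also carry. Its signals ran from 1313.8 to 1994.7 before induction, from 1525.7 to 2290.2 after 2 weeks, from 1564.2 to 2062.4 after 2 days of repression, from 1122.4 to 2626.2 after 6 weeks and from 1664.6 to 2204.7 after 2 weeks of repression. All groups overlapped, and both the highest and the lowest of the 18 hearts were in the 6-week group. The lowest was heart 3, with the high Actb ratio, and the highest was heart 2. The difference at 6 weeks was 0.02 (limma, adjusted p = 0.956), and Esam was called in none of the 8 comparisons.

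Rgcc encodes a regulator of the cell cycle that is induced by complement and is abundant in capillary endothelium, and it was the 1 member called higher between 2 and 6 weeks of induction and lower after the repression that followed. Its brighter probe set, 1438511_a_at, read 1289.2, 2402.1, 1249.5 and 942.0 before induction, 815.0, 410.0, 1364.0 and 1241.9 after 2 weeks, and 654.1, 680.6, 1071.8 and 562.6 after 2 days of repression. After 6 weeks the hearts read 2455.0, 2031.7 and 2138.9, and after 2 weeks of repression 580.5, 1049.4 and 516.3. The 6-week hearts were above those of both repressed groups and of the 2-week group, and heart 2 before induction reached their range. By this probe set Rgcc rose by 1.29 ± 0.341 (SE) between 2 and 6 weeks of induction (limma, adjusted p = 0.0288) and fell by 1.62 ± 0.364 after 2 weeks of repression (limma, adjusted p = 0.00471). Against before induction the difference at 6 weeks was 0.65 and not called (limma, adjusted p = 0.182).

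The other Rgcc probe set, 1418003_at, read 479.4, 785.3, 451.5 and 454.0 before induction, 343.6, 322.8, 347.2 and 402.5 after 2 weeks, and 297.5, 354.3, 496.9 and 359.9 after 2 days of repression. At 6 weeks hearts 1 and 2 read 1020.2 and 1192.9, above all others, and heart 3, with the high Actb ratio, 298.7. After 2 weeks of repression the signals were 295.2, 405.7 and 290.1. This probe set fell by 1.04 ± 0.328 (SE) after repression (limma, adjusted p = 0.0330). Without heart 3 of the 6-week group the probe sets changed places: 1418003_at gained the call between 2 and 6 weeks (1.52, adjusted p = 0.000270) and at 6 weeks against before induction (1.00, adjusted p = 0.00383), while 1438511_a_at lost the former (1.31, adjusted p = 0.0554), all by limma. The fall after repression was called for both probe sets with that heart and without it (1.61 and 1.64 without). Without it 1418003_at was also called in the test of late against early repression (-1.68, limma, adjusted p = 0.00346).

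**Figure D2:**
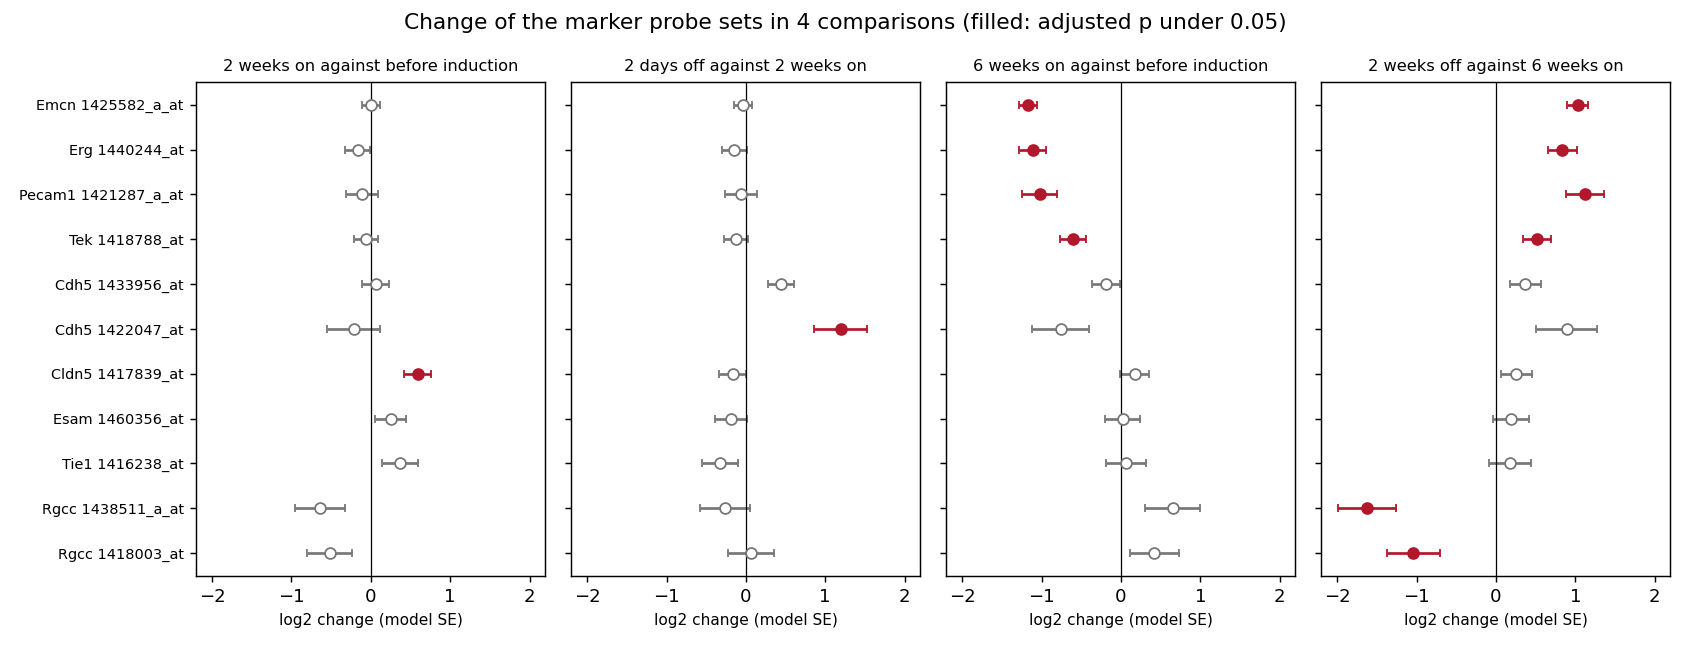
Log2 change ± model SE of the 11 member probe sets in 4 comparisons, with filled symbols for an adjusted p below 0.05. Emcn, Erg, Pecam1 and Tek lie to the left of 0 after 6 weeks of induction (-1.17 to -0.61) and to the right after 2 weeks of repression (0.52 to 1.12), and Rgcc lies on the opposite side in each.

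Ordered by mean signal, Emcn, Erg, Pecam1 and Tek each had the 6-week group last, and only the step to that group was wider than the pooled SD of the neighbouring groups. For Esam and Tie1 no step was wider than that. For the brighter Cdh5 probe set it was only the step from the 2-day group, the highest, to the next, and for the brighter Rgcc probe set only the step from the 6-week group, the highest, to the hearts before induction. For Cldn5 it was only the step from the 2-day group to the 6-week group. The summed signal of the 8 members on chip 430A overlapped between groups, at 7181 to 9580 before induction, 6308 to 9117 after 6 weeks and 7595 to 8744 after 2 weeks of repression. At the last time point no member was called against before induction, 0 of 11 beside 2.57% of all probe sets, and 2 had an unadjusted p below 0.05 in limma, Rgcc by 1438511_a_at (-0.97) and Cldn5 (0.43). Without the hearts with Xist signal the Cldn5 difference was 0.05 (limma, adjusted p = 0.927). Scaling every array to a common median moved the median of all probe sets at 6 weeks against before induction from -0.08 to 0.07 and the share of calls that were higher from 42.8% to 70.6%. Under it Emcn (-0.98), Erg (-0.99) and Pecam1 (-0.83) were still called lower there by limma, and Tek was not (-0.41, adjusted p = 0.109).

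A wider list of 86 genes of endothelial cells, their signalling pathways and their junctions was read beside the members. Of these 84 were measured and 79 passed the filter, each by its brightest probe set. Not all are particular to endothelium: Tjp1 and Ctnnb1 also belong to myocyte junctions, and angiopoietins come from mural and muscle cells. After 6 weeks against before induction 25 of the 79 were called lower and 2 higher, where 8.14% and 7.58% of all 14650 genes tested were, with a median change of -0.26 beside -0.05. Between 2 and 6 weeks of induction 16 were called lower and 0 higher, against 2.82% and 2.35% of genes, with a median of -0.20 beside -0.03. After 2 weeks of repression 19 were called higher and 5 lower, against 7.19% and 5.53%, with a median of 0.14 beside 0.03. With arrays scaled to a common median the counts were 13 lower and 4 higher in the first of these, 11 and 1 in the second, and 6 higher and 8 lower in the third, so the direction of the third count depends on the scaling. Over all probe sets that scaling gave 3.56% lower and 8.54% higher in the first, 1.08% and 1.89% in the second, and 4.20% higher and 5.52% lower in the third. With only the groups compared in the fit the counts were 17 lower and 0 higher, 8 and 1, and 4 higher and 0 lower. Without the hearts with Xist signal the first was 17 lower and 1 higher. Without heart 3 of the 6-week group they were 21 lower and 3 higher, 18 and 3, and 16 higher and 4 lower. Without heart 1 of that group the first count was 16 lower and 1 higher and the third 10 higher and 3 lower, and without heart 2 after 2 weeks of repression the third was 8 and 3, without heart 3 of that group 13 and 1.

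The junction partners of Cdh5, Cldn5 and Esam included the strongest change of the list. F11r, the junctional adhesion molecule JAM-A, had signals of 690.5 to 997.3 before induction, 222.6 to 306.4 after 6 weeks and 881.1 to 982.9 after 2 weeks of repression, with no overlap between the 6-week hearts and the others. It fell by 1.45 ± 0.144 (SE) at 6 weeks (limma, adjusted p = 2.73e-06) and rose by 1.57 after repression. Jam3 (-0.68), the tight junction scaffold Tjp1 (-0.68) and the cadherin-binding Ctnnb1 (-0.52) were also called lower at 6 weeks, 4 of 10 junction genes in all with 0 higher. Over all genes 8.14% were called lower and 7.58% higher. Tjp1 and Ctnnb1 are also components of the junctions between cardiac myocytes.

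Among receptors for vascular endothelial growth factor, 3 of 5 were called lower at 6 weeks and 3 of 5 higher after repression. Over all genes these shares were 8.14% and 7.19%. Kdr, the main signalling receptor, fell by 0.66 and rose by 0.83, and its co-receptors Nrp1 (-0.57, then 0.60) and Nrp2 (-0.68, then 0.78) followed that order. Of the 4 other genes of the angiopoietin and Tie pathway that were tested, Angpt1, the activating ligand of Tek, fell by 1.12 ± 0.294 at 6 weeks (limma, adjusted p = 0.0271), and 0 were called after repression. The antagonist ligand Angpt2 was below the filter.

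Of 14 endothelial transcription factors tested, 6 were called lower and 1 higher at 6 weeks, and 5 higher and 1 lower after repression. Over all genes 8.14% were called lower and 7.58% higher at 6 weeks, and 7.19% higher and 5.53% lower after repression. Ets1, an ETS factor like Erg, fell by 1.02 and rose by 1.31, and Sox7 fell by 0.99 and rose by 0.97. Ets2 (-0.77), Hhex (-0.82), Epas1 (-1.29) and Lmo2 (-0.61) were the others called lower. Sox17 went the other way, with 0.71 at 6 weeks and -0.98 after repression. The summed signal of the factors on chip 430A was 9583 to 11758 before induction, 7071 to 8839 after 6 weeks and 9451 to 12227 after 2 weeks of repression, so the 6-week hearts did not overlap with either.

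Arterial genes gave 3 of 8 called lower and 0 higher at 6 weeks, where 8.14% and 7.58% of all genes were. After repression 2 of the 8 were called higher and 0 lower, where 7.19% and 5.53% of all genes were. The Notch ligand Dll4 read 310.3 to 497.2 before induction, 156.6 to 177.3 after 6 weeks and 385.1 to 589.0 after repression, a fall of 1.08 and a rise of 1.31, and Efnb2 (-0.89) and Hey1 (-0.82) were the others. Of 8 genes of venous, lymphatic or endocardial cells, Prox1 (-0.78) and Ephb4 (-0.41) were called lower at 6 weeks, and Lyve1 (-1.12) and Pdpn (-0.40) after repression. Among the 30 remaining endothelial genes 6 were called lower and 1 higher at 6 weeks, led by the caveolar protein Cav2 (-1.29) with Cav1 (-0.83), Icam2 (-0.86) and Podxl (-0.54), and with Icam1 higher (0.47). After repression 5 of these 30 were called higher and 2 lower, with a median of 0.08 beside 0.02 over all probe sets. The summed signal of this list on chip 430A was 48586 to 57763 before induction and 40182 to 49475 after 6 weeks. After 2 weeks of repression it was 40750 to 48744, within the range of the 6-week hearts. The brightest genes in these sums were Cd36 and Fabp4.

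In the test of late against early repression 6 of the 79 genes were called higher and 0 lower, where 0.321% of all genes were called higher: F11r (1.46), Ets1 (1.39), Sox7 (1.31), Cav2 (1.30), Dll4 (1.02) and Podxl (0.76). Leaving out 1 heart at a time gave 2 to 10 called higher and 0 lower, the largest number without heart 3 of the 6-week group. The lowest number came without heart 3 or 4 of the 2-week group, heart 2 or 4 of the 2-day group, heart 1 of the 6-week group or heart 2 after 2 weeks of repression.

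The early comparisons held few such calls. After 2 weeks of induction Mcam (1.30) and Cd34 (0.72) were called higher and Prox1 (-0.68) and Npr3 (-0.86) lower, against 3.69% and 2.90% of all genes. Without the hearts with Xist signal 2 of the 79 were called higher and 0 lower, so the calls of Prox1 and Npr3 were lost. Between that time and 2 days of repression Jag1 (0.87), Epas1 (1.15), Ctnnd1 (0.83) and Prox1 (0.91) were called higher and Podxl (-0.49), Cd34 (-0.48), Eng (-0.38) and Fabp4 (-0.50) lower, against 5.23% and 5.36%. Against before induction 5 of 79 were called after 2 days of repression, where 3.81% of all genes were, with Ctnnd1 (1.01), Mcam (0.75) and Cd93 (0.68) higher and the growth factor receptor Flt1 (-0.49) and Podxl (-0.51) lower. After 2 weeks of repression 3 of 79 were called, where 2.71% were, Mcam higher (0.93), and Aqp1 (-0.73) and Efnb2 (-0.82) lower. Without the hearts with Xist signal these were 3 called, with 2 higher, after 2 days and 1, lower, after 2 weeks, so the Mcam call at 2 weeks was lost.

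**Figure D3:**
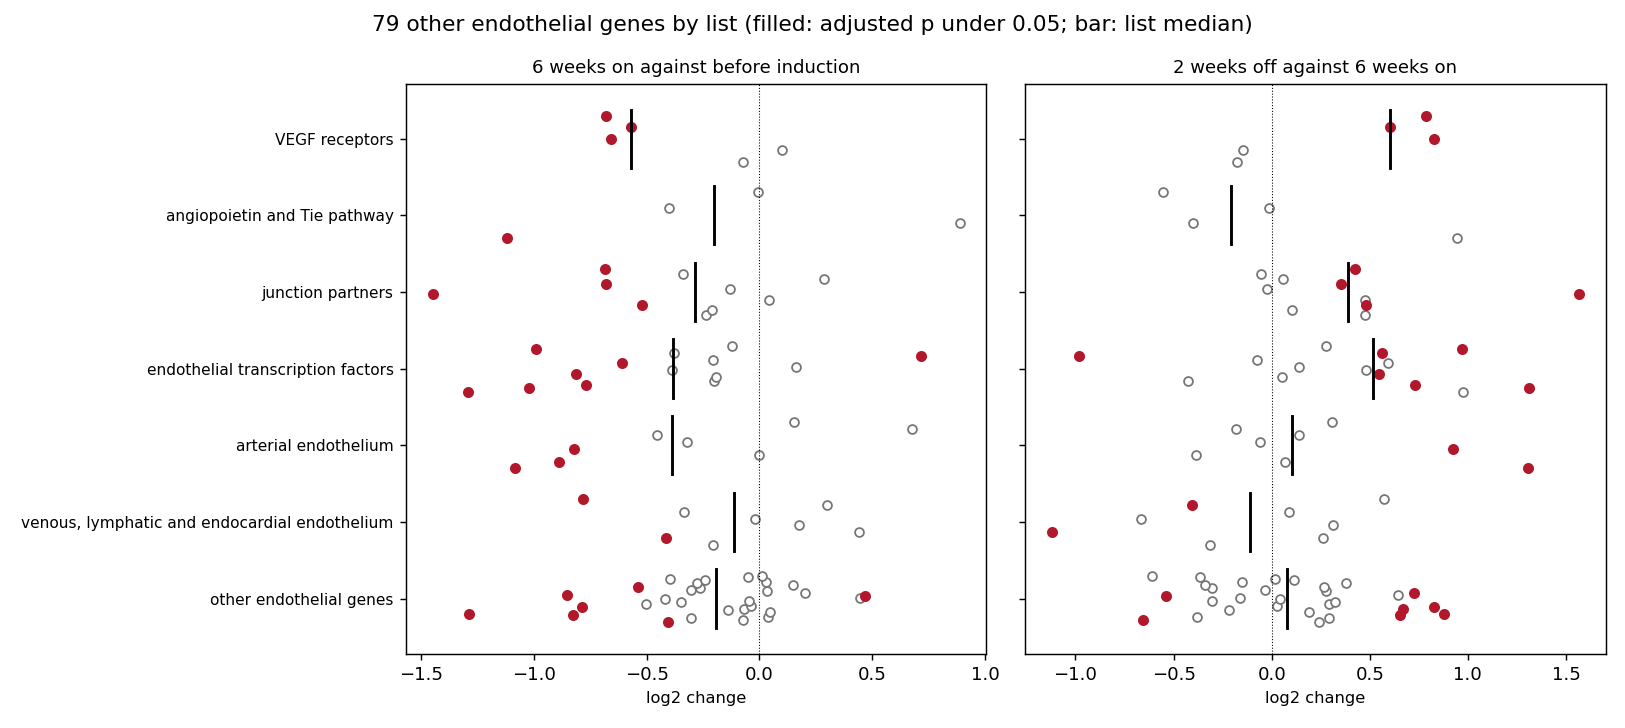
Log2 change of the 79 tested companion genes in 7 lists, at 6 weeks of induction against before induction and after 2 weeks of repression against 6 weeks. Points are genes, filled where the adjusted p was below 0.05, and bars are list medians. The median of the growth factor receptors lies farthest from 0 in both (-0.57, then 0.60), and those of the transcription factors are -0.38 and 0.52.

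Markers of other cells were read in the same hearts, since a change in the mix of cells would move with the members. At 6 weeks 5 of 12 fibroblast genes were called higher and 0 lower, where 7.58% and 8.14% of all genes were. They were the collagens Col1a1 (1.12), Col1a2 (1.21) and Col3a1 (0.69) with Pi16 (1.36) and Mfap5 (1.47). The other 7 had differences below 0 and the median of the 12 was -0.03, beside -0.08 over all probe sets, with sums of 51568 to 62328 against 46393 to 58462 before induction. The list already gave 5 called higher and 1 lower after 2 weeks of induction, against 3.69% and 2.90% of all genes. Smooth muscle and pericyte genes gave 3 higher and 3 lower of 12, with Cnn1 at 1.96 and the channel gene Abcc9 at -2.77. Their sums, 27014 to 30010.3 against 21721 to 24210.3, did not overlap. Rgs5 and Des were the brightest genes in these sums, with mean signals of 8398 and 7776 over all hearts. Signals of Des by group are not given here, and the part of each gene in the difference between the sums was not tested. Whole-heart RNA does not show which cells gave these signals. Mean signals before induction and at 6 weeks were 1924 and 3064 for Acta2, 959 and 1060 for Pdgfrb, and 8510 and 8803 for Rgs5. The median difference of the 12 smooth muscle and pericyte genes was 0.12, with 8 above 0, beside -0.08 over all probe sets.

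Of 12 cardiomyocyte genes, Ryr2 was called higher (0.62) and Pln lower (-0.71), against 7.58% and 8.14% of all genes. Their sums were 196770 to 288767 at 6 weeks against 270608 to 360177 before induction. Of 12 macrophage and leukocyte genes and 5 platelet genes, the blood cells that also carry Pecam1 or Esam, 0 were called at 6 weeks against before induction. The 5 platelet genes had 0 differences above 0 there, with a median of -0.19 beside -0.08 over all probe sets. After 2 weeks of repression against 6 weeks of induction all 5 were above 0 and 0 were called, with a median of 0.16 beside 0.02. Beside the Pecam1 rise, after 2 weeks of repression against 6 weeks of induction, all 12 macrophage and leukocyte genes had differences above 0, with a median of 0.44 beside 0.02 over all probe sets. Lyz2 (1.15) and Ptprc (0.64) were called higher there, where 7.19% of all genes were. For 2 days of repression against 2 weeks of induction, beside the Cdh5 rise, 10 of the 12 were above 0, with a median of 0.31 beside -0.01. Lyz2 (0.73) and Tyrobp (0.58) were called higher in that comparison, where 5.23% of all genes were. The macrophage and leukocyte sums were 8281 to 11259 before induction, 7283 to 11316 after 6 weeks and 10707 to 14372 after 2 weeks of repression. Of 2 erythroid genes Alas2 was lower (-1.74), with sums of 314 to 621 against 823 to 1527. The sums of 4 adipocyte genes were 426 to 1376 before induction, 876 to 1436 after 2 weeks and 874 to 1226 after 6 weeks. Heart 3 of the 2-day group, without which the Cdh5 call was lost, had 5597, and the others of that group 1193 to 2029. After 2 weeks of repression heart 2 had 5358, and the others 1279 and 1587. The part of these cell types in the changes of Emcn, Erg, Pecam1, Tek and Cdh5 was not tested.

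**Figure D4:**
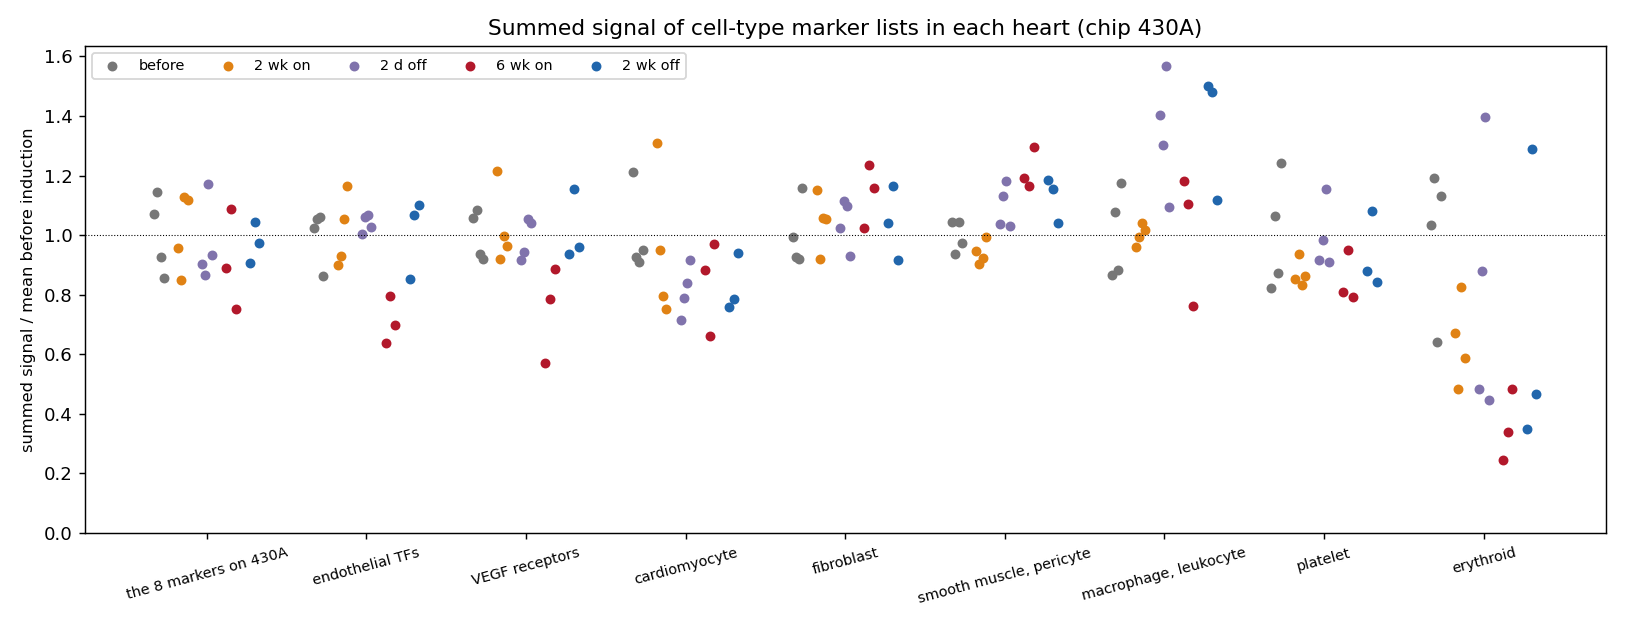
Summed signal of marker lists on chip 430A in each of the 18 hearts, divided by the mean of the hearts before induction, for 8 members, endothelial transcription factors, growth factor receptors and 6 lists of other cells. The member sums overlap between groups, and the transcription factor sums of the 6-week hearts lie below those before induction.

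Likeness to the members was measured as Pearson's r over the 18 hearts between a gene's log2 signal and the mean of the centred members, among 9268 genes of chip 430A. It is a description without a p, because the values share arrays and groups. The most alike genes were Sparcl1 (r = 0.79), Kat2b (0.78), Utrn (0.78), Casp8 (0.76), Akap12 (0.76), Ets1 (0.76), Ets2 (0.76) and Lbr (0.75). After group means were subtracted the most alike were Tanc1 (0.84), Plxdc2 (0.81), Col6a3 (0.80), Nos3 (0.80), Tor4a (0.80), Phtf1 (0.80), Med4 (0.79) and Pcdh1 (0.78), of which Nos3 is the nitric oxide synthase of endothelium. The brighter Cdh5 probe set and Esam had an r of 0.62 with each other over the 18 hearts, and of 0.94 after group means were subtracted, or 0.86 without the 6-week group.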

How the data were processed

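RNA of each heart was measured on a pair of Affymetrix chips, 430A and 430B. The deposited values are signal intensity on a linear scale, made with MAS5 per the submitters' processing notes, and the authors' scaling left every array of a chip at 1 trimmed mean (500.2 on 430A, 122.5 on 430B). No scan date or other batch is stated by the labels, and none was tested. Gene symbols came from the platform annotation, and heart numbers are those of the labels, which may not mark the same heart on both chips.

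From the deposited intensity, log2(signal + 10% of the trimmed mean) was computed, and probe sets with a mean below 20% of it were left out. All 18 arrays of a chip entered 1 limma 3.58.1 fit (R 4.3.3; lmFit, eBayes with trend) with 8 contrasts and Benjamini-Hochberg adjustment within the chip, and a call is an adjusted p below 0.05. The fit was tested on simulated data. The brightest probe set stands for a gene. Named genes are all members and, per comparison and list, up to 4 called genes by adjusted p; Epas1, Lmo2, Sox17, Icam1 and the markers of other cells were named beyond that rule, after their values were seen. The 9 members and all lists were chosen with earlier results of these data known. Alternatives changed the offset, filter, scaling, covariates and hearts. Protein sequences were not used here.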

Additional observations from a re-analysis of the deposited data

Results flagged for a closer look

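Rgcc by 1418003_at had 1 heart that stood far from the rest of its group: heart 2 before induction gave a signal of 785.3, beside 451.5 to 479.4 in the other 3. The same heart was the highest of its group by the other Rgcc probe set, at 2402.1. This was 1 of 33 groups checked in this way, and chance gives about 1 in 20.

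The Emcn change over repression differed between the late and the early course. After 2 weeks of induction Emcn differed from before induction by 0.004 (limma, adjusted p = 0.986), so the early course had no called fall to return from. The rise over 2 weeks of repression after 6 weeks of induction exceeded the change over 2 days of repression after 2 weeks by 1.06 on the log2 scale (limma, adjusted p = 0.00431), with 3 of 3 hearts after late repression above all 3 hearts at 6 weeks.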

How the results depend on the processing

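No called member changed direction in any setting run. At 6 weeks against before induction the count of 4 called member probe sets (all lower) was 3 to 4 when 1 heart was left out at a time, but the members changed: without heart 3 of the 6-week group it was 3 lower, with Tek lost, and 1 higher, Rgcc by 1418003_at, and with the hearts with Xist signal left out as well 2 lower and 1 higher. It was 3 lower without the latter alone, 3 lower with a common median, and 4 lower and 1 higher with the Actb ratio as a covariate. After 2 weeks of induction the count of 1 was 0 without the filter, 0 without the hearts with Xist signal, 0 without these and heart 3 of the 6-week group, 0 with only the groups compared in the fit, and 0 to 2 with 1 heart left out. For 2 days of repression against 2 weeks of induction (1) it was 2 under quantile normalization, 0 with the Actb ratio as a covariate, 2 with only the groups compared and 0 to 1 with 1 heart left out. For 2 days of repression against before induction (0) it was 1 with the covariate and 3 with only the groups compared. For 6 against 2 weeks of induction (4) it was 2 with only the groups compared. For 2 weeks of repression against 6 weeks of induction (6) it was 3 with the covariate, 2 with only the groups compared and 4 to 6 with 1 heart left out. For 2 weeks of repression against before induction (0) it was 1 with the covariate. For late against early repression (1) it was 3 with the covariate, 2 without heart 3 of the 6-week group and the hearts with Xist signal, a setting chosen after seeing the data, and 1 to 2 with 1 heart left out. Fewer samples in the fit lower its power, and otherwise the cause was not tested.

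With arrays scaled to a common median, the share of calls over all probe sets that were higher went from 53.1% to 67.8% after 2 weeks of induction, from 54.3% to 40.2% for 2 days of repression against 2 weeks of induction and from 54.7% to 65.2% against before induction. It went from 42.8% to 70.6% for 6 weeks against before induction, from 41.7% to 63.6% for 6 against 2 weeks, from 59.5% to 43.2% for 2 weeks of repression against 6 weeks of induction, from 45.5% to 63.1% against before induction and from 50.3% to 40.2% for late against early repression. Heart numbers did not pair hearts across groups: deviations of same-numbered hearts correlated at a median of -0.015, over 0.1 in 5 of 33 pairs. The replicate block lost 2 calls, Rgcc by 1438511_a_at between 2 and 6 weeks (1.24, limma, adjusted p = 0.0599) and Tek after repression (0.52, limma, adjusted p = 0.0682), and changed no other member call. With the Actb covariate Pecam1 after repression was 0.62 and not called (limma, adjusted p = 0.0510). Groups of 3 or 4 arrays limit the precision.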
